A study of Mus musculus with 6 samples.

Results

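The genes described here belong to the integrated stress response and to the inhibitors of mTOR, the kinase that couples nutrients to growth. They are Ddit4l, Ddit4, Sesn1, Sesn2, Atf3, Atf4, Ddit3, Trib3, Asns and Chac1. They were chosen by name, as the probes whose annotated symbol is one of these 10, and each matched 1 probe, so 10 of 23466 probes and 10 of 16384 named genes are covered. Ddit4l was picked because its probe read higher in both other genotypes than in wild type, so its values against wild type are a description and support nothing by themselves. The other 9 genes were taken for their function, with earlier results of these data known.

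Transcript levels were measured on 6 one-colour arrays of C57BL6 mouse neural stem cells, taken from brain at P0, postnatal day 0. The cells grew without treatment in DMEM/F12 medium with bFGF, EGF and heparin. They carried the Ecrg4 genotypes wt (wild type), hetero (heterozygous) and homo (homozygous), with 2 arrays for each. The sources used here do not say how the allele was altered, nor whether a genotype's arrays stem from different animals or cultures. The p-values therefore reflect array-to-array spread, and that spread may be technical.

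When cells lack amino acids or haem, carry misfolded protein in the endoplasmic reticulum or sense double-stranded RNA, kinases phosphorylate the translation factor eIF2. General translation then falls, while the messenger RNA of the transcription factor ATF4 is translated more. ATF4 and its partners switch on genes for amino acid synthesis and transport, feedback inhibitors and, under lasting stress, CHOP (Ddit3). The response also restrains mTOR complex 1 through stress-induced inhibitors, among them REDD1 (Ddit4) and sestrin 2. ATF4 protein is set largely by translation, so the level of its messenger RNA is not a measure of its activity. In neural progenitors mTOR signalling is known for its part in growth, self-renewal and differentiation.

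Promoter letters bear on how the chosen genes belong together, since ATF4 binds C/EBP-ATF response elements. The core TGATGNAA was searched on both strands, where its other strand reads TTNCATCA, in the 250 bases before and 50 bases after each RefSeq gene start of mouse assembly GRCm38.p6. It was found in 4 of 11 promoters of the chosen genes, against 3.97% of 32851 promoters of that length. The 10 genes were all matched, and Sesn1 has 2 listed promoters. The matches, with the core in capitals and each stretch written along its gene's strand, are as follows.
Atf3, chr1:191183425-191183454, minus strand: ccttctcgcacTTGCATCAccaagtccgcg
Trib3, chr2:152344028-152344057, minus strand: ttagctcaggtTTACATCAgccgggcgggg
Asns, chr6:7693214-7693243, minus strand: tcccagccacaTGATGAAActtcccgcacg
Chac1, chr2:119351038-119351067, plus strand: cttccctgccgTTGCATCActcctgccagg
The core began 110 bases before the start in Atf3, 23 in Asns and 193 in Chac1, and lay just after the start in Trib3. The full cyclic AMP response element TGACGTCA, which reads the same on both strands, was in none of the 11 promoters and in 1.79% of all promoters. Ddit4l, Ddit4, Sesn1, Sesn2, Atf4 and Ddit3 held neither pattern in this window, which says only that these letters are not there. Whether the 4 genes with the core share a pattern of levels over the genotypes cannot be told here. Atf3 and Trib3 were too dim on all arrays to be measured, as the values below show.

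Each array had a median intensity of 30 over its measured probes and between 21740 and 22561 probes with a value. As a reference for background, the 95th percentile of 663 olfactory receptor probes lay between 50.5 and 57.6 per array and is called the background level here. Of 10 tested neural stem cell markers, 9 exceeded it on all 6 arrays, while 7 of 8 neuron markers, 3 of 4 microglial markers and 7 of 8 fibroblast and mural markers lay under it on all 6. The Ecrg4 probe read 1.4 and 1.3 in the homozygous arrays, 112.9 and 154.9 in wild type and 345.5 and 373.9 in the heterozygous arrays. The homozygous label therefore matched its probe, but heterozygous exceeded wild type, so directions between these 2 refer to the arrays as labelled.

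Among the chosen genes, the one picked for its values, Ddit4l, comes first. It encodes REDD2, which like REDD1 inhibits mTOR complex 1 by way of the TSC complex. Its probe read 8.8 and 6.1 in wild type, 62.8 and 56.6 in heterozygous and 193.4 and 186.6 in homozygous. The 3 genotypes did not overlap, and arrays of 1 genotype differed by at most 1.44-fold. By the values used to pick it, Ddit4l was higher than wild type by 4.70 ± 0.21 on the log2 scale (standard error of the limma fit, n = 2 arrays each) in homozygous and by 3.02 ± 0.21 in heterozygous.

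The wild-type values of Ddit4l lay under the background level, so the size of both differences depends on the background. Placing wild type at its background level, Ddit4l was at least 3.44-fold higher in homozygous and at least 1.08-fold higher in heterozygous. With a pseudocount of 16 the log2 differences were 3.14 and 1.69. The heterozygous arrays themselves lay just above their background levels of 54.2 and 50.5. In bulk RNA, fewer cells that express a gene and less of its RNA per cell cannot be told apart.

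The choice of Ddit4l did not compare homozygous with heterozygous, but it used the values of both. Between homozygous and wild type Ddit4l had the largest rise of all 20434 probes tested. The comparison of homozygous with heterozygous is therefore not independent of the choice. Here Ddit4l rose 3.19-fold (95% interval 2.25 to 4.52), or by 1.67 ± 0.21 on the log2 scale, with a limma adjusted p of 0.0175 over all probes tested. Passing means an adjusted p under 0.05 throughout. It was the 1 chosen gene of 10 that passed in this comparison, where 2.69% of all probes passed (1.26% higher and 1.43% lower). Leaving out an array ended the call, with an adjusted p of 0.0811 and 0.114 without heterozygous arrays 1 and 2 and of 0.145 and 0.147 without homozygous arrays 1 and 2, while the log2 difference stayed between 1.60 and 1.75.

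The order wild type, heterozygous, homozygous with no overlap was shown by Ddit4l alone of the 10 genes and by 3.6% of all probes tested. The choice of Ddit4l fixed wild type as its lowest genotype, so this share does not show how unusual its order is. Some markers of other cells moved over the genotypes as well. The 8 fibroblast and mural markers summed to 1353.2 and 1062.8 in wild type, 409.2 and 401.5 in heterozygous and 204.8 and 236.8 in homozygous. Only Acta2 exceeded the background level on all arrays, and the other 7 lay under it on all arrays. Acta2 itself read 1229.5 and 894.8, 277.5 and 284.6, and 88.0 and 118.5, so the change in the sum was mainly that of Acta2. The sum of 8 neuron markers was 289.6 and 253.6, 270.5 and 240.7, and 467.0 and 412.8 in the same order of genotypes. Only Elavl4 exceeded the background level throughout. Elavl4 itself read 107.8 and 83.0, 113.6 and 94.1, and 254.6 and 244.3, so the rise of the sum was mainly that of Elavl4. The sum of 7 astrocyte markers ran in the opposite order to Ddit4l, from 9925.1 and 11027.8 over 9015.9 and 8955.4 to 8478.4 and 7550.7. Only S100b, Gja1 and Aldoc among them exceeded the background level on all arrays. The astrocyte gene Aqp4 was lower in homozygous than in heterozygous, and no astrocyte gene passed against wild type. The microglial genes P2ry12 and Cx3cr1 lay under the background level on all arrays. P2ry12 was higher in homozygous than in both others, and Cx3cr1 lower in heterozygous than in wild type. The neural stem cell sum stayed between 65932.5 and 71810.7. The part of these markers in the Ddit4l values was not tested.

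**Figure D1:**
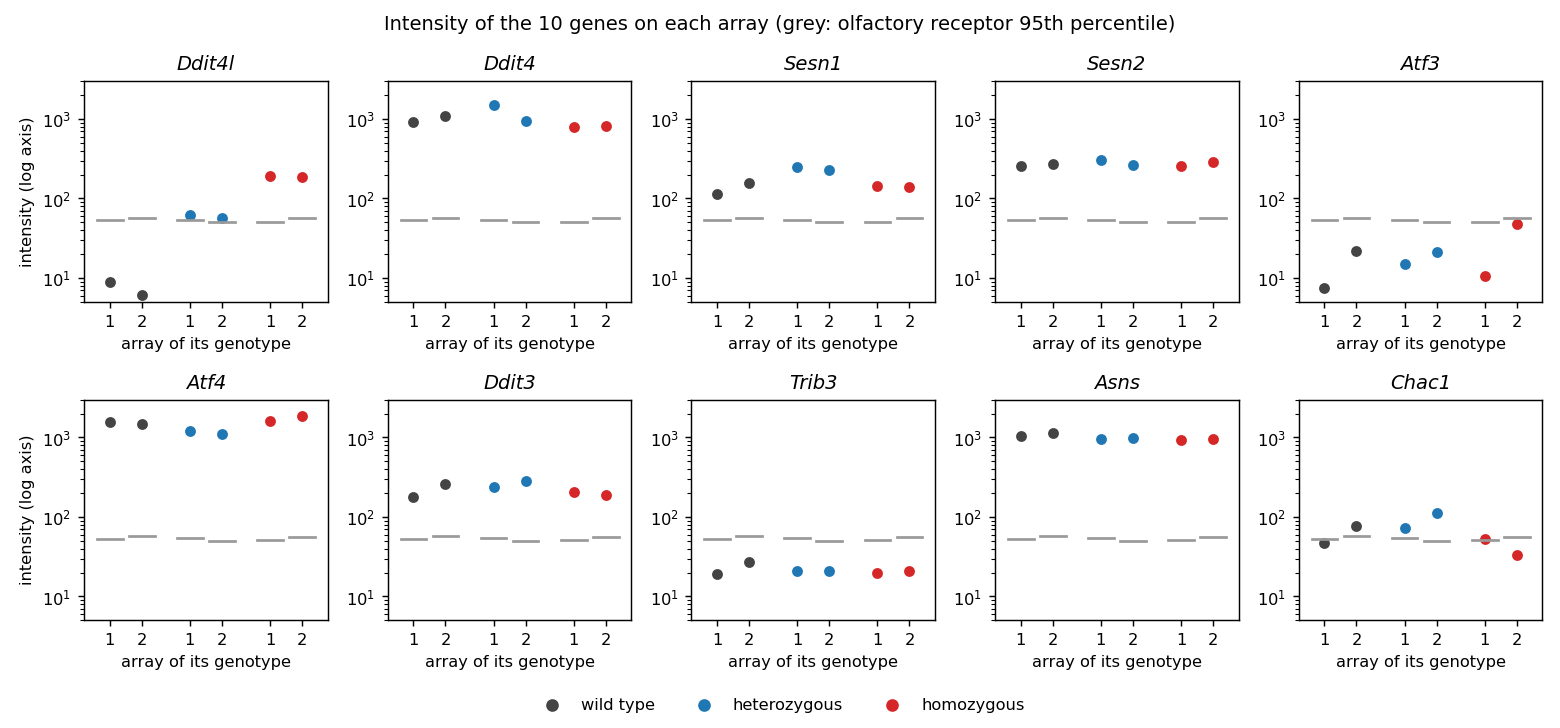
Intensity (log axis) of the 10 genes on each of the 2 arrays of wild type (dark), heterozygous (blue) and homozygous (red), with the array's background level as a grey bar. Ddit4l climbs from 8.8 and 6.1 to 193.4 and 186.6, while Atf3 and Trib3 lie under the grey bars on all arrays and the other genes vary by at most 3.33-fold.

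Genes next to Ddit4l on chromosome 3 were looked at for a like pattern. The 3 nearest tested genes on either side were Slc39a8, Ppp3ca, Emcn, H2az1, Dnajb14 and Lamtor3, the last a subunit of the Ragulator complex that anchors mTOR complex 1 at the lysosome. Slc39a8 and Emcn lay under the background level on all arrays and can show none. None of these 6 passed in any comparison, and their log2 differences between homozygous and wild type lay between -0.35 and 0.53. Lamtor3 read 596.2 and 715.7 in wild type, 779.5 and 578.3 in heterozygous and 758.7 and 696.6 in homozygous, so its genotypes overlapped. Ecrg4 itself lies on chromosome 1.

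By Pearson correlation of log2 intensity over the 6 arrays, the genes most like Ddit4l among 7306 named probes with a genotype mean above the background level were Apoa2 (r = 0.996), Ube2q1 (0.995), Gbp7 (0.992), Pfkfb3 (0.991) and Rufy1 (0.990). All 6 arrays are shared by these values, and with 3 genotypes of 2 arrays a high r mainly restates the order of the genotypes. Apoa2, an apolipoprotein gene, read 16.5 and 14.1, 42.6 and 43.0, and 66.0 and 78.5 in wild type, heterozygous and homozygous. The interferon-inducible GTPase gene Gbp7 read 10.4 and 8.5, 39.4 and 42.4, and 85.3 and 63.1. Both lay under the background level in wild type and heterozygous. The spans of the others were small: Pfkfb3, which makes the glycolytic activator fructose-2,6-bisphosphate, went from 152.8 and 146.7 to 237.9 and 229.3 (0.64 ± 0.14, limma adjusted p = 0.1, past the threshold in 3 of 16 alternatives), and the ubiquitin-conjugating enzyme gene Ube2q1 from 487.2 and 473.8 to 588.4 and 573.0 (0.27 ± 0.14, adjusted p = 0.339). Of the other chosen genes the largest r with Ddit4l by size was that of Asns, -0.95, and the remaining 8 lay between -0.50 and 0.35.

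**Figure D2:**
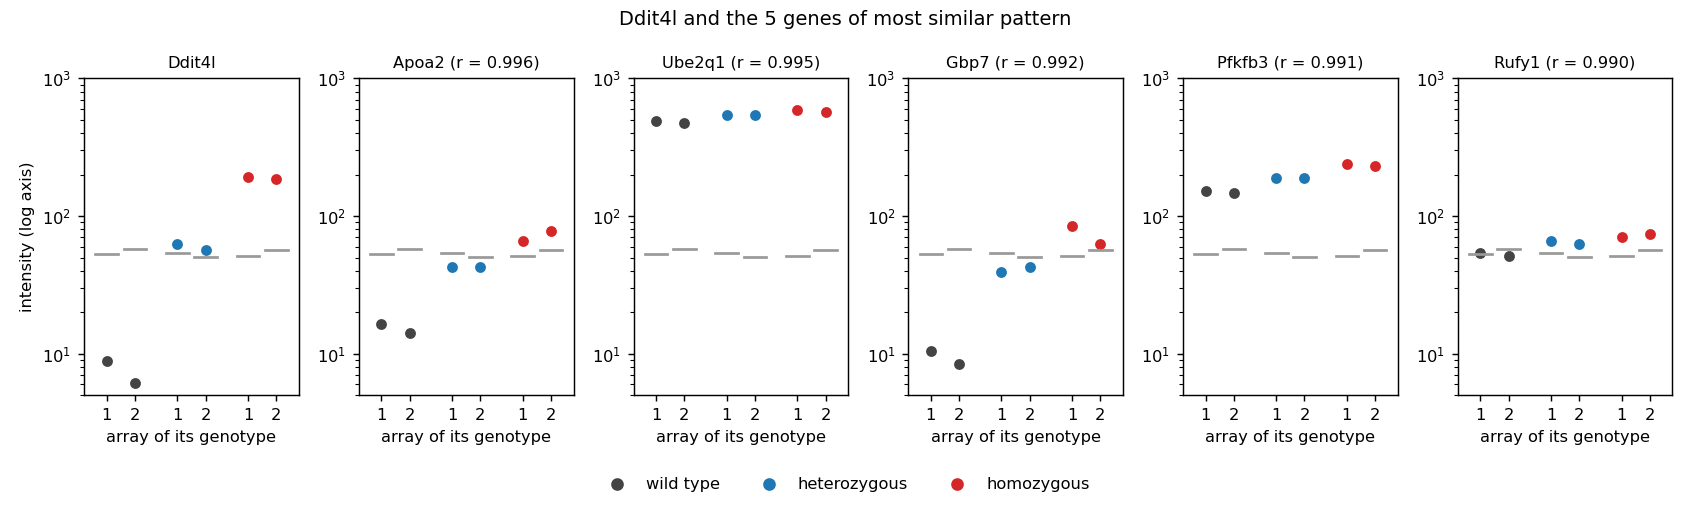
Intensity (log axis) of Ddit4l and of the 5 genes with the highest Pearson r with it, by array and genotype, with the background level in grey. The order of genotypes is shared, while the span runs from the 31.7-fold of Ddit4l to the small steps of Ube2q1 between 473.8 and 588.4.

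The other mTOR inhibitors did not follow Ddit4l. Its paralogue Ddit4, which encodes REDD1 and is induced by hypoxia, glucocorticoids and ATF4, was bright on every array. Ddit4 read 908.8 and 1100.3 in wild type, 1500.2 and 932.6 in heterozygous and 796.5 and 810.7 in homozygous. The heterozygous arrays were 1.61-fold apart, and the homozygous arrays lay below all others. No comparison passed: the log2 difference was -0.32 ± 0.25 between homozygous and wild type (limma adjusted p = 0.526) and -0.56 ± 0.25 between homozygous and heterozygous (adjusted p = 0.312). The 95% interval against wild type ran from 0.528-fold to 1.22-fold, which leaves out a rise of the size of Ddit4l.

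Sesn1 encodes sestrin 1, a p53-induced inhibitor of mTOR complex 1 that acts on the GATOR complexes. Its arrays read 114.4 and 155.4 in wild type, 246.8 and 230.0 in heterozygous and 145.1 and 140.7 in homozygous. Both heterozygous arrays lay above all the others, a pattern shown by 11.1% of all probes tested, and the remaining genotypes overlapped. The heterozygous level was 1.79-fold that of wild type (95% interval 1.30 to 2.45), but the limma adjusted p was 0.165. Homozygous against heterozygous gave a log2 difference of -0.74 ± 0.19 (adjusted p = 0.114). With an intensity trend and robust prior, both differences passed (adjusted p = 0.0312 and 0.0262). Over all 16 alternatives the adjusted p lay between 0.0312 and 0.467 for the first and between 0.0262 and 0.447 for the second.

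Sesn2 encodes sestrin 2, the leucine sensor that ATF4 and p53 induce. Its arrays read 256.0 and 273.5 in wild type, 303.9 and 266.7 in heterozygous and 255.7 and 287.0 in homozygous, and all genotypes overlapped. The interval between homozygous and wild type ran from 0.787-fold to 1.33-fold (log2 difference 0.03 ± 0.16, limma adjusted p = 0.927). The third sestrin gene, Sesn3, read 170.0 and 189.5, 231.5 and 192.0, and 203.1 and 195.4, and its largest log2 difference, heterozygous against wild type, was 0.23 ± 0.16 (adjusted p = 0.534).

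Atf4, the transcription factor at the centre of the response, was among the bright probes. It read 1570.2 and 1461.4 in wild type, 1222.9 and 1100.3 in heterozygous and 1613.4 and 1846.5 in homozygous. The 3 genotypes did not overlap, with heterozygous lowest and homozygous highest, and heterozygous below both others was shown by 10.7% of all probes. Homozygous was 1.49-fold heterozygous (95% interval 1.14 to 1.94, log2 difference 0.57 ± 0.16, limma adjusted p = 0.132). Against wild type the log2 differences were 0.19 ± 0.16 in homozygous (adjusted p = 0.547) and -0.39 ± 0.16 in heterozygous (adjusted p = 0.367). The difference of 0.57 passed in 3 of 16 alternatives: with a pseudocount of 16 (adjusted p = 0.0287), over probes above the background level (0.0381) and with an intensity trend and robust prior (0.0281). Over the 16 the adjusted p lay between 0.0281 and 0.531.

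Asns, which makes asparagine and is among the best-known ATF4 targets, hardly varied. It read 1055.9 and 1149.8 in wild type, 951.3 and 983.4 in heterozygous and 927.5 and 946.0 in homozygous. The wild-type arrays were the highest and no genotype overlapped another, but the whole span was 1.24-fold. The interval between homozygous and wild type was 0.669-fold to 1.08-fold (log2 difference -0.23 ± 0.14, limma adjusted p = 0.413). Between homozygous and heterozygous Asns differed by only -0.05 ± 0.14 (adjusted p = 0.896), and the sign changed with quantile normalization and cyclic loess. Which of these genotypes was lowest for Asns is thus not settled.

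Ddit3 encodes CHOP, the transcription factor tied to cell death under lasting stress. Its arrays read 176.5 and 260.9 in wild type, 235.4 and 281.3 in heterozygous and 204.9 and 189.5 in homozygous. The wild-type arrays, 1.48-fold apart, spanned both homozygous values. No difference passed, the largest being -0.39 ± 0.22 on the log2 scale between homozygous and heterozygous (limma adjusted p = 0.426).

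Chac1 encodes an enzyme that breaks down glutathione and lies downstream of ATF4 and CHOP. It read 46.9 and 77.9 in wild type, 73.4 and 110.9 in heterozygous and 53.2 and 33.3 in homozygous. Wild-type array 1 and homozygous array 2 lay under the background level. Homozygous and heterozygous did not overlap, with a log2 difference of -1.10 ± 0.36 and a 95% interval of 0.257-fold to 0.847-fold (limma adjusted p = 0.181). Among the 9 genes other than Ddit4l it had the largest difference by size in that comparison. Arrays of 1 genotype were up to 1.66-fold apart.

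Trib3, a pseudokinase gene that ATF4 and CHOP induce and that dampens them in turn, was under the background level on every array. It read 19.2 and 27.2, 20.7 and 21.2, and 19.6 and 21.1 in wild type, heterozygous and homozygous. Atf3, a stress-induced transcription factor that is also an immediate early gene, stayed under that level as well. Its arrays read 7.5 and 21.8 in wild type, 15.0 and 21.0 in heterozygous and 10.7 and 48.3 in homozygous. The homozygous arrays of Atf3 were 4.51-fold apart, more than any difference between its genotypes, and no comparison passed for Trib3 or Atf3. For both genes these values bound the level rather than measure it.

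Atf3 differed between the numbered arrays of a genotype in the same direction as several other immediate early genes, a class that responds to growth factors and handling within minutes. Array 2 exceeded array 1 in all 3 genotypes for Atf3 and for 9 of 16 tested immediate early genes, against 13.1% of all probes tested. Among the chosen genes Trib3 and Asns did so as well, which made 3 of 10. The Atf3 values lay under the background level on all arrays, so its ratios are uncertain. Fos read 271.9 and 903.4 in wild type, 281.4 and 1242.6 in heterozygous and 240.6 and 3209.8 in homozygous. Nr4a1 read 154.4 and 434.3, 125.5 and 440.5, and 125.3 and 1891.8. Homozygous array 2 thus held the highest Fos, Nr4a1 and Atf3 values, and without it the log2 difference of Atf3 between homozygous and wild type went from 0.83 to -0.26. No immediate early gene passed with limma in any comparison, and 1, 3 and 0 of 16 had an unadjusted p under 0.05, against 19%, 13.5% and 18.2% of all probes. What separated the numbered arrays was not tested.

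**Figure D3:**
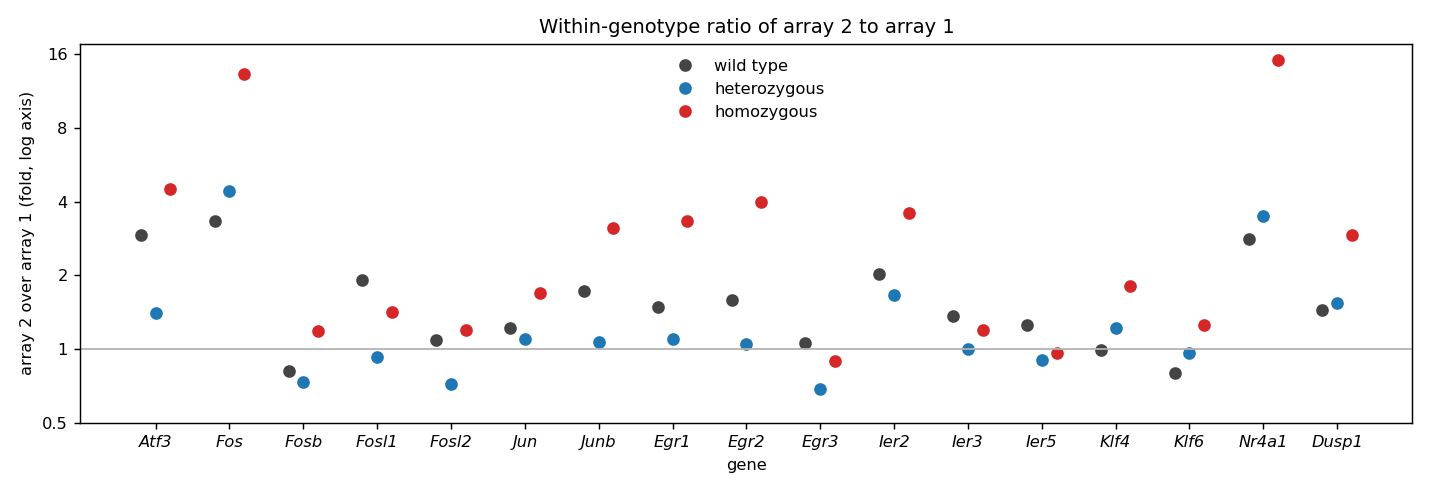
Ratio of array 2 to array 1 within each genotype (fold, log axis) for Atf3 and the 16 tested immediate early genes, wild type dark, heterozygous blue and homozygous red. The ratio reaches 13.3 for Fos and 15.1 for Nr4a1 in homozygous, and Atf3 lies at 2.91, 1.40 and 4.51. The intensities of Atf3 were under the background level on all arrays.

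Counted over the 10 genes, few differences passed. Of them, only Ddit4l passed between homozygous and wild type, where 0.92% of all probes passed (0.431% higher and 0.489% lower), and between heterozygous and wild type, where 0.749% did (0.411% higher and 0.338% lower). These are the comparisons it was picked for. At an unadjusted p under 0.05, 0, 2 and 3 of the other 9 were found between homozygous and wild type, heterozygous and wild type, and homozygous and heterozygous, against 19%, 13.5% and 18.2% of all probes. The median log2 difference of those 9 was -0.12, 0.24 and -0.07 in these comparisons, against 0.02, -0.01 and 0.04 over all probes tested. Genotypes that did not overlap were found for 4 of 10 genes between homozygous and wild type (50.5% of all probes, 25.7% higher and 24.8% lower), 4 of 10 between heterozygous and wild type (45.5%, 21% higher and 24.5% lower) and 7 of 10 between homozygous and heterozygous (54.6%). In the last, 2 genes were higher in homozygous, Ddit4l and Atf4 (28.7% of all probes), and 5 were lower, Ddit4, Sesn1, Ddit3, Asns and Chac1 (25.9%).

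**Figure D4:**
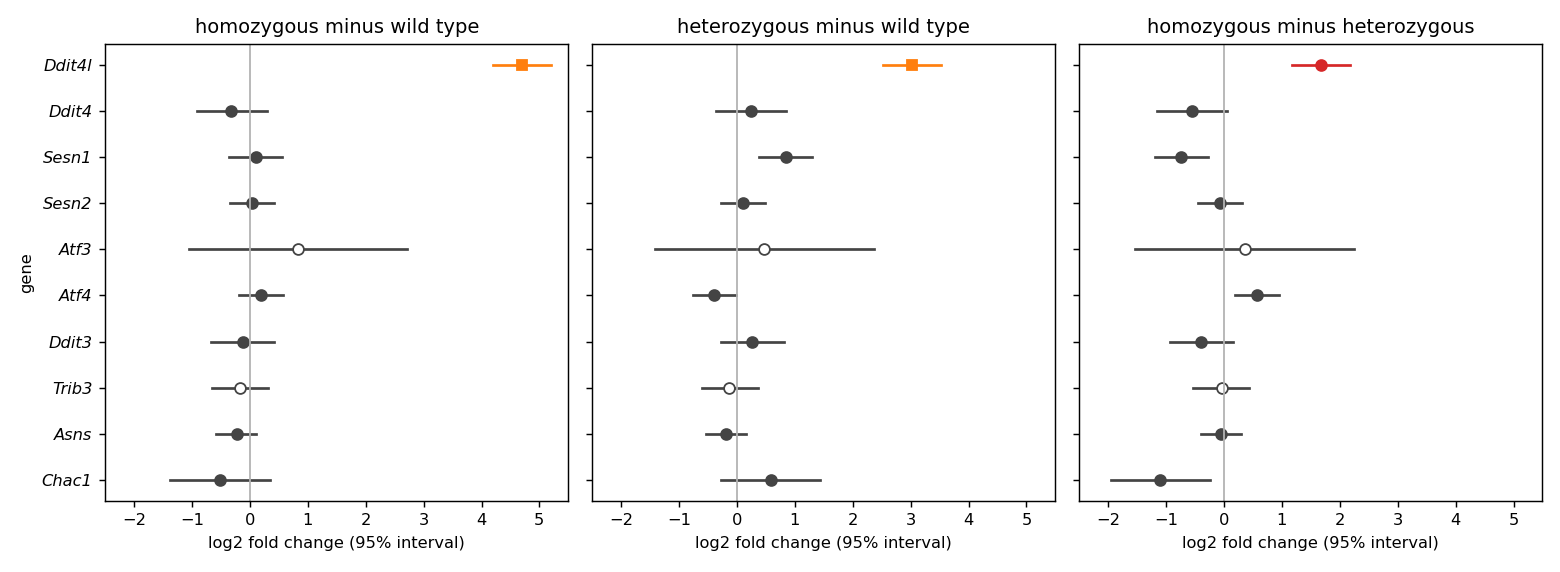
Log2 fold change with its 95% interval from the limma fit for the 10 genes in the 3 comparisons. Orange squares are the values Ddit4l was picked for, and red marks any other difference past the threshold. Open circles are genes under the background level on all arrays. The 1 red value, 1.67 for Ddit4l, is not independent of that choice.

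The wider pathway was described with 11 gene lists of 195 genes, of which 163 were tested. Between homozygous and wild type 1 rose and 2 fell, 1.84% of them, between heterozygous and wild type 1 rose (0.613%), and between homozygous and heterozygous 1 rose and 3 fell (2.45%). These shares stand beside 0.92%, 0.749% and 2.69% of all probes. The counts at an unadjusted p under 0.05 below are given in the same order of comparisons, and stand beside 19%, 13.5% and 18.2% of all probes.

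Upstream of Atf4, 3 of the kinases that phosphorylate eIF2 were tested, and none passed. The haem-sensing kinase gene Eif2ak1 was not analysed here. Eif2ak3, the kinase of endoplasmic reticulum stress, read between 192.1 and 271.6 on the 6 arrays, and Eif2ak4, the sensor of uncharged transfer RNA, between 132.2 and 186.7. Eif2ak2, the kinase that senses double-stranded RNA, lay under the background level throughout. Of 14 tested genes for eIF2, its kinases, phosphatases and exchange factor, 1 rose: Eif2s3x, the X-linked gene for the gamma subunit of eIF2. Its probe read 132.6 and 126.1 in wild type, 146.2 and 154.4 in heterozygous and 351.5 and 292.1 in homozygous. Both homozygous arrays lay above all others, by 2.48-fold against wild type (1.31 ± 0.16, limma adjusted p = 0.0297) and 2.13-fold against heterozygous (1.09 ± 0.16, adjusted p = 0.0286). Leaving out any 1 array ended the first call (adjusted p between 0.0582 and 0.224), and leaving out any heterozygous or homozygous array ended the second (0.131 to 0.197). In all, 10 of 16 alternatives ended the first and 5 the second.

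Eif2s3x has a Y-linked copy of nearly the same sequence, Eif2s3y, which its probe may not separate. The Y-linked gene Kdm5d read 114.1 and 107.3 in wild type, 121.7 and 109.7 in heterozygous and 68.1 and 82.5 in homozygous, so it was detected in all arrays and lowest in homozygous. Its relation to the Eif2s3x values was not tested. Ppp1r15a, which encodes the stress-induced phosphatase subunit GADD34 that ends the response, was singled out after its values were seen. It read 61.3 and 65.3, 63.5 and 50.4, and 101.8 and 113.5 in wild type, heterozygous and homozygous, and homozygous lay 0.93 ± 0.17 above heterozygous on the log2 scale (limma adjusted p = 0.0537). That difference passed with median centring, quantile normalization and cyclic loess (adjusted p = 0.0345, 0.0321 and 0.0355), and in 7 of 16 alternatives in all, with an adjusted p between 0.00907 and 0.323.

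Of the genes ATF4 controls, none passed in any comparison by limma's adjusted p. In the list of amino acid synthesis and transport, 17 of 19 genes were tested, and the median log2 difference was 0.20 between homozygous and wild type, -0.10 between heterozygous and wild type and 0.22 between homozygous and heterozygous. At an unadjusted p under 0.05 there were 6, 4 and 5 of 17, in each comparison a larger share than over all probes. The glycine transporter gene Slc6a9 had the largest difference among those above background on all arrays, with 2786.5 and 2369.9 in wild type, 1756.5 and 1827.6 in heterozygous and 1451.7 and 1228.6 in homozygous (-0.94 ± 0.17 between homozygous and wild type, limma adjusted p = 0.0705). In the list of other ATF4 and CHOP targets, with 16 genes tested, the medians were -0.19, -0.13 and -0.17. An unadjusted p under 0.05 was found for 5, 1 and 7 of 16. These shares were larger than over all probes except between heterozygous and wild type. Trib2, a relative of Trib3 among these ATF4 and CHOP targets, read 5242.2 and 4867.5, 3569.1 and 4428.6, and 3418.9 and 2990.6 (-0.66 ± 0.17 between homozygous and wild type, adjusted p = 0.136). Both differences passed in 3 of 16 alternatives, with an adjusted p between 0.00462 and 0.351 for Slc6a9 and between 0.0248 and 0.462 for Trib2. Only 3 of 20 aminoacyl-transfer RNA synthetase genes were tested, so that list says little.

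In the branches of the unfolded protein response that run beside eIF2, no gene passed. None of 18 tested genes for chaperones and for the IRE1 and ATF6 arms passed with limma, and 1 of 18 in each comparison had an unadjusted p under 0.05, a smaller share than over all probes. Their medians were -0.08, -0.01 and -0.08. The disulfide isomerase gene Pdia6 differed by -0.53 ± 0.15 between homozygous and heterozygous (adjusted p = 0.144), and passed in 3 of 16 alternatives (0.031 to 0.482). Hspa5, which encodes the chaperone BiP, read 2464.6 and 4796.2 in wild type, 4042.0 and 4619.1 in heterozygous and 4639.4 and 4472.1 in homozygous, so 1 wild-type array stood below the other 5. Xbp1, the transcription factor activated by IRE1, read 197.1 and 330.1, 402.8 and 381.3, and 329.1 and 310.3 (0.62 ± 0.25 between heterozygous and wild type, limma adjusted p = 0.367).

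On the mTOR side, none of 16 tested genes of the complexes and effectors and none of 23 tested genes of the TSC, GATOR and Rag sensing machinery passed with limma. An unadjusted p under 0.05 was found for 2, 2 and 3 of the 16 and for 1, 2 and 3 of the 23, near or under the shares over all probes. The medians between heterozygous and wild type were 0.17 and 0.16, with 12 of 16 and 20 of 23 genes above 0. Over all probes that median was -0.01, with 9927 of 20434 above 0. Between wild-type arrays 2 and 1 the lists' medians were of like size, 0.21 and 0.16, against 0.13 over all probes. Between homozygous and wild type the list medians were 0.08 and 0.02. Rptor, the scaffold subunit of mTOR complex 1, read 212.1 and 248.5, 224.7 and 222.2, and 178.4 and 180.6 (-0.36 ± 0.15 between homozygous and wild type, limma adjusted p = 0.275). Sgk1, a kinase activated by mTOR complex 2 and induced by glucocorticoids, had the largest difference of those above background, with 133.3 and 174.2, 220.4 and 162.8, and 310.9 and 504.3 (1.38 ± 0.29, adjusted p = 0.0949). Deptor, an inhibitor that binds mTOR itself, was named after its values were seen: it read 16.2 and 27.2, 54.6 and 64.9, and 34.9 and 30.2. Only the heterozygous arrays of Deptor exceeded the background level, and the log2 difference between heterozygous and wild type was 1.5 ± 0.27 (adjusted p = 0.095). Of 16 alternatives, 4 passed for Deptor (adjusted p between 0.0105 and 0.392) and 3 for Sgk1 (0.0168 to 0.365).

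**Figure D5:**
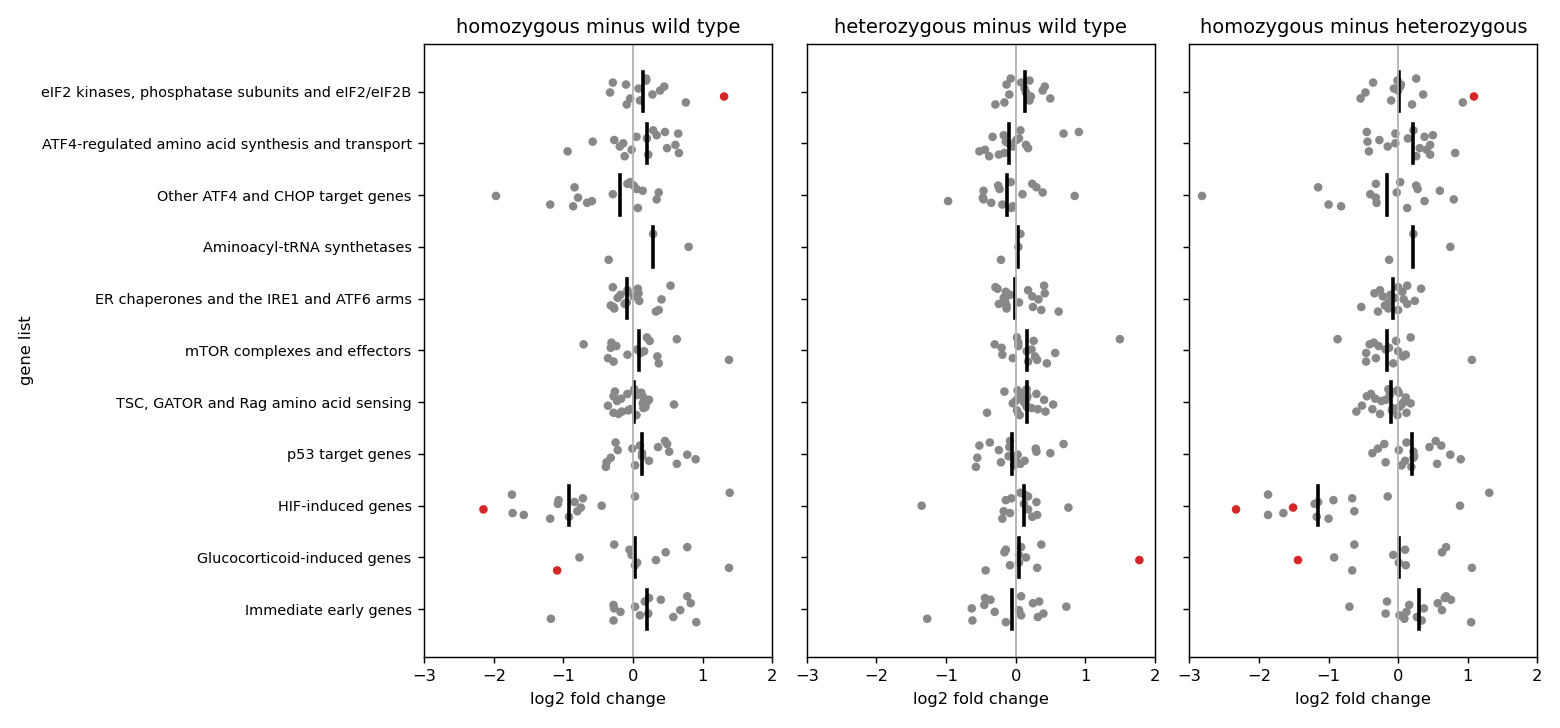
Log2 fold change of each tested gene (points) in the 11 lists for the 3 comparisons, with the list median as a black bar and genes past the threshold in red. Most medians lie near 0, and the HIF-induced list sits apart at -0.92 and -1.15 in the comparisons with homozygous.

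Regulators known to induce Ddit4 and the sestrins were described by their other targets. Among 18 tested p53 targets none passed with limma. An unadjusted p under 0.05 was found for 5, 3 and 5 of them, in each comparison a larger share than over all probes. Mdm2, which encodes the ligase that degrades p53, read 231.9 and 262.2 in wild type, 262.6 and 242.6 in heterozygous and 408.8 and 438.2 in homozygous (0.78 ± 0.15 between homozygous and wild type, limma adjusted p = 0.0813), and the kinase gene Plk2 read 312.6 and 350.5, 280.1 and 392.2, and 580.6 and 655.9 (0.90 ± 0.21, adjusted p = 0.110). In these comparisons both passed in 3 of 16 alternatives (0.0109 to 0.365 for Mdm2, 0.0162 to 0.411 for Plk2), and Mdm2 between homozygous and heterozygous passed in 7 (0.0097 to 0.36). The list median between homozygous and heterozygous was 0.20, with 14 of 18 genes above 0. Sesn1, a p53 target too, was highest in heterozygous instead.

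The HIF-induced list, 15 genes tested, had medians of -0.92, 0.12 and -1.15, with 11, 1 and 11 of 15 at an unadjusted p under 0.05. Arrays of 1 genotype differed in this list too. From array 1 to 2 its median log2 difference was 0.68 in wild type, 0.21 in heterozygous and -0.44 in homozygous. Over all probes tested these medians were 0.13, -0.08 and 0.05. In each comparison with homozygous 13 of 15 genes lay below 0, beside 9759 (against wild type) and 9285 (against heterozygous) of 20434 probes. Adm, counted in both 11s, went the other way. It read 584.0 and 845.0, 910.7 and 599.3, and 1838.6 and 1835.2 (1.39 ± 0.27 between homozygous and wild type, limma adjusted p = 0.0773). Ndrg1, a gene much used as a hypoxia marker, fell in homozygous against both others, and Mxi1, an antagonist of Myc, fell against heterozygous (-1.51 ± 0.24, limma adjusted p = 0.0344), a call that ended without any 1 heterozygous or homozygous array (0.0967 to 0.219) and in 6 of 16 alternatives in all. Ndrg1 read 44.6 and 59.1, 52.6 and 64.2, and 11.7 and 11.4, so homozygous lay under the background level and was at least 1.08-fold lower than heterozygous. Against wild type, where array 1 was itself under that level, no bound above 1 was left. Its calls ended without either homozygous array (adjusted p between 0.0738 and 0.163). Without heterozygous array 2 the call against heterozygous ended as well (adjusted p = 0.0503). Ddit4, also hypoxia-induced, had its lowest values in homozygous too, without passing.

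Of 11 tested glucocorticoid-induced genes, Tsc22d3, which encodes the leucine zipper protein GILZ, fell from 267.0 and 284.4 in wild type to 133.2 and 125.2 in homozygous, with 198.2 and 211.3 in heterozygous (-1.09 ± 0.14, limma adjusted p = 0.0364). The metallothionein gene Mt2 rose in heterozygous, with 6753.6 and 6808.7 against 1800.1 and 2179.3 in wild type (1.78 ± 0.25, adjusted p = 0.0461) and 3155.5 and 1968.0 in homozygous (-1.44 ± 0.25, adjusted p = 0.0441). Sgk1 in the same list went the other way from Tsc22d3. Mt1, the other metallothionein gene listed, read 12414.2 and 14871.8 in wild type, 13946.9 and 16382.4 in heterozygous and 9209.4 and 6939.5 in homozygous. Its wild-type and heterozygous arrays overlapped. Over the list the medians were 0.03, 0.05 and 0.01, with 4, 2 and 5 of 11 at an unadjusted p under 0.05. Leaving out any 1 array ended the calls of Tsc22d3 (adjusted p between 0.0601 and 0.260) and of Mt2 (0.0592 to 0.225). In all, 10 of 16 alternatives ended the call of Tsc22d3, 10 that of Mt2 against wild type and 9 that of Mt2 against homozygous.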

How the data were processed

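The deposited values are linear intensity values of 1-colour arrays, with a median of 30 on each, as the values show. The sources used here do not state how background was corrected or why cells are blank. RNA was amplified to amino allyl aRNA and dye-coupled, per the labels' protocols, although the labels also give biotin. Intensities were log2-transformed without a pseudocount, and 20434 of 23466 probes had a value on all 6 arrays and were tested. Genotype means were estimated in 1 limma fit over the 6 arrays (limma 3.58.1, R 4.3.3, 3 residual and 3.27 prior degrees of freedom). Tests were two-sided, with Benjamini-Hochberg adjustment over all probes and a threshold of 0.05. The fit was tested on simulated data. Symbols came from the platform annotation and were updated through RefSeq synonyms of GRCm38.p6: 12620 current, 3943 replaced, 59 ambiguous and 3 unmatched; 6841 probes were unnamed. A gene with several probes in a list was represented by its brightest. The genes and lists were chosen with earlier results of these data known. All 10 genes were named; in the lists, genes past the threshold and up to 3 further genes with the largest differences above the background level on all arrays were eligible, and others are marked. Alternatives were other scalings, a pseudocount of 16, a filter at the background level, filled blank cells, a trended robust prior, array weights, only the arrays compared, a replicate block and leaving out each array. The number of arrays limits the precision.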

Additional observations from a re-analysis of the deposited data

How the results depend on the processing

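Ddit4l kept its direction under all 16 alternatives in the 3 comparisons. Those against wild type are the ones it was picked for, so its values there are a description and support nothing by themselves. Homozygous against heterozygous is not independent of that choice. No other chosen gene passed between homozygous and wild type under any alternative. The count of chosen genes past the threshold, 1 in each comparison, became 2 between heterozygous and wild type with an intensity trend and robust prior, which added Sesn1. Between homozygous and heterozygous it became 3 with a pseudocount of 16, with the background filter and with the trended prior, which added Atf4 and Sesn1, and 2 with array weights, which added Sesn1. Leaving out 1 array gave 0 to 1 in each comparison. Even as a description, Ddit4l no longer passed between homozygous and wild type without either homozygous array. Between heterozygous and wild type it no longer passed without heterozygous array 2. With the replicate block no count of chosen genes changed, and Ddit4l gave a limma adjusted p of 0.0379 between homozygous and heterozygous. Taken over all probes, the same-numbered arrays did not deviate together (correlations of deviations 0.02, 0.01 and -0.08), so they were not treated as paired. These correlations do not cover single genes: 9 of 16 immediate early genes had array 2 above array 1 in all genotypes.

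Over all probes, the 188 calls between homozygous and wild type became 314, 328 and 313 with median centring, quantile normalization and cyclic loess, 1143 with the pseudocount, 875 with the background filter, 88 with filled blank cells, 1094 with the trended prior, 89 with array weights, 59 with only the arrays compared and 47 with the replicate block, and 1 to 224 with 1 array left out. The 153 between heterozygous and wild type became 306 with the pseudocount, 400 with the trended prior, 100 with array weights, 40 with only the arrays compared and 51 with the block, and 18 to 340 with 1 array left out. The 549 between homozygous and heterozygous became 1376 with the pseudocount, 998 with the filter, 320 with filled cells, 1357 with the trended prior, 1261 with array weights and 244 with the block, and 6 to 680 with 1 array left out. Apart from the smaller sets of arrays and probes, the cause was not tested.

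Of 474 alternative values of the chosen genes, 17 changed sign, none of them past the threshold. By setting, Asns between homozygous and heterozygous was 0.06 with quantile normalization and 0.04 with cyclic loess, and Sesn2 between homozygous and wild type was -0.02 with median centring. The remaining ones came from leaving out 1 array. Between homozygous and heterozygous this gave -0.73 to 1.44 for Atf3, -0.17 to 0.02 for Sesn2 and -0.10 to 0.01 for Trib3. Between heterozygous and wild type it gave -0.30 to 1.24 for Atf3, -0.02 to 0.54 for Ddit3, -0.10 to 0.59 for Ddit4 and -0.38 to 0.13 for Trib3. Between homozygous and wild type it gave -0.26 to 1.92 for Atf3, -0.40 to 0.16 for Ddit3, -0.12 to 0.32 for Sesn1, -0.05 to 0.12 for Sesn2 and -0.42 to 0.08 for Trib3. Of the other genes named, 42 differences were recomputed, and 0 of their 669 alternative values changed sign. Genes given only as array values, such as Hspa5, Fos, Nr4a1 and the neighbours of Ddit4l, were not among them. Probes under the background level, Atf3 and Trib3 among the chosen genes, limit what can be said of their size.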

Other observations

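Nupr1, a stress-induced chromatin protein gene downstream of ATF4, did not pass in any comparison and was singled out after its values were seen. It read 10.9 and 40.2 in wild type, 25.1 and 56.9 in heterozygous and 6.1 and 4.7 in homozygous, with 1 of 6 arrays above the background level. Its log2 difference between homozygous and heterozygous was -2.82 (limma adjusted p = 0.09), and over its 15 alternatives the adjusted p lay between 0.03 and 0.395, with 4 past the threshold and a log2 difference between -3.41 and -1.36.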
